A study of Mus musculus with 2 samples.

Results

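Of the 2825 single-exon protein-coding transcripts in the annotation of the mouse genome (build mm10, GENCODE M21), 377 were selected on their reads in long-read RNA sequencing of left cerebral cortex. Long-read sequencing can read most or all of a transcript in 1 read. Whether each 1-exon read covered a whole transcript was not tested here. A transcript entered the set when its deposited model was of the class Known (a match to an annotated transcript), had 1 exon and at least 1 read in both libraries. The presence of reads in both libraries therefore describes the choice and is not a result. The whole series held 143217 mouse transcript models after matching between the libraries, among them 13496 Known spliced protein-coding transcripts with a read in both. The tissue came from male mice of the strain B6CASTF1/J, 14 days old, and each of the 2 libraries was made from 2 µg of total RNA with ERCC and SIRV spike-ins added. They form 1 group, so no treatment or genotype was compared, and replicate 2 was set against replicate 1 only to measure the spread between libraries. The labels number them as biological replicates 1 and 2 but give 1 donor identifier for both and mention several males, so each may be a pool. The p-values below set a difference against counting error alone.

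Genes without introns make an mRNA that needs no splicing. The class is known for transcription factors of the early response to stimuli, histones, many G protein-coupled receptors and protocadherins, and for retrogenes, which arose when a spliced mRNA was copied back into the genome. Replication-dependent histone mRNAs end in a conserved stem-loop in place of a poly(A) tail, and the genes of the mitochondrial genome have no introns at all.

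The name of the set held for most genes and not for all. No transcript of the gene had an annotated intron for 293 of the 377 members (77.7%, 95% Wilson interval 73.3 to 81.6%), each from a gene of its own. For the other 84 members the gene also had spliced transcripts, so that only the transcript was intronless. The shortest member, of 102 bases, was Gm3625 (chr12:4592826-4592927), followed by Ginm1 with 300 bases and Gm10190 with 324 bases. None of these 3 models has an annotated UTR, and Ginm1 had 1 read in replicate 1 and 4 in replicate 2.

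Retrogenes show the missing introns in their sequence. The windows below span the place where exon 2 of the mouse Ftl1 mRNA (ferritin light chain, the iron storage protein) joins exon 3, with the 8 bases around the junction in capitals. In Ftl1-ps1, a member on chromosome 13, the same 60 bases are 1 uninterrupted stretch of a single exon, while the Ftl1 gene on chromosome 7 holds an intron between them. All sequences of transcripts were read from the GENCODE M21 transcript file, 5′ to 3′.

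Ftl1-ps1: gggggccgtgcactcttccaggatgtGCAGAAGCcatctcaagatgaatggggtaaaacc
Ftl1: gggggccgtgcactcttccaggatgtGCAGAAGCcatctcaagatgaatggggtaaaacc

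The 2 windows had 0 differences, so a read that covers only these bases cannot be placed by them. The next pair shows a copy with differences in the annotated sequence. Whether they separated the reads was not tested. Gm7075, a member on chromosome 10, and Rnf7 (a RING finger protein of cullin ubiquitin ligases) on chromosome 9 differ at 2 of 60 bases around the junction of exons 1 and 2 of Rnf7, given in capitals.

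Gm7075: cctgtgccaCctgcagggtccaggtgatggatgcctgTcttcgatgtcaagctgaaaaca
Rnf7: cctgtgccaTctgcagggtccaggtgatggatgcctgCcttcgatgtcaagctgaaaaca

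The histone stem-loop was searched for in the 9 histone members only. The stem-loop, in capitals below, was found in 6 of the 9 histone members, and the lines are shown to compare it between genes of different read number.

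Hist3h2a: caaaGGCTCTTTTCAGAGCCacccacaacc
H2afx: caaaGGCCCTTTTAAGGGCCaccacctccc
Hist2h2aa2: aaaaGGCTCTTTTCAGAGCCacccactgaa

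In 4 of these 6 transcripts the annotation runs on past the stem-loop to a poly(A) signal within the last 50 bases, also in capitals here beside the end of Ndn, a member that is not a histone gene.

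Hist3h2a end: atgcccAATAAAataagagtacgtgtataa
H2afx end: aattttATTAAAggatcgtttggttttgtt
Ndn end: tagcagAATAAAcccttatcatgc

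Intronless transcripts held 11630 of the 775048 mouse reads of replicate 1 (1.501%, 95% Wilson interval 1.47 to 1.53%) and 13530 of the 924222 mouse reads of replicate 2 (1.46%, 1.44 to 1.49%). The mean was 1.48% ± 0.0259 (SD, n = 2). Among single-exon mouse reads of every class, members took 8.30% in replicate 1 and 7.498% in replicate 2. Intervals here and below cover counting error only. The median member stood at 12.9 reads per 1000000 mouse reads (CPM) in replicate 1 and 13.0 CPM in replicate 2. The median was 11.6 and 11.9 CPM for the Known spliced protein-coding transcripts. These 13496 spliced transcripts belong to 10041 genes, so reads of a gene can be split over several, and the medians do not compare genes. The reads were uneven: the 20 highest members held 38.4% of member reads in replicate 1 and 37.4% in replicate 2. At the edge of the rule, 21 members had exactly 1 read in each library. Just outside it were 112 transcripts with reads in 1 library only, 81 of them with 1 read and none with more than 7.

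Jund (chr8:70698949-70700616), a subunit of the AP-1 transcription factor, was the highest member with 502 reads in replicate 1 and 524 in replicate 2, or 607 ± 57.1 CPM (SD, n = 2). Ndn (necdin, an imprinted MAGE family gene, chr7:62346569-62350262) followed with 463 and 379 reads. Eno1b, a copy of the glycolytic enzyme gene Eno1 on chromosome 18, had 385 and 396 reads. These 3 stood above every other member in both libraries.

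**Figure D1:**
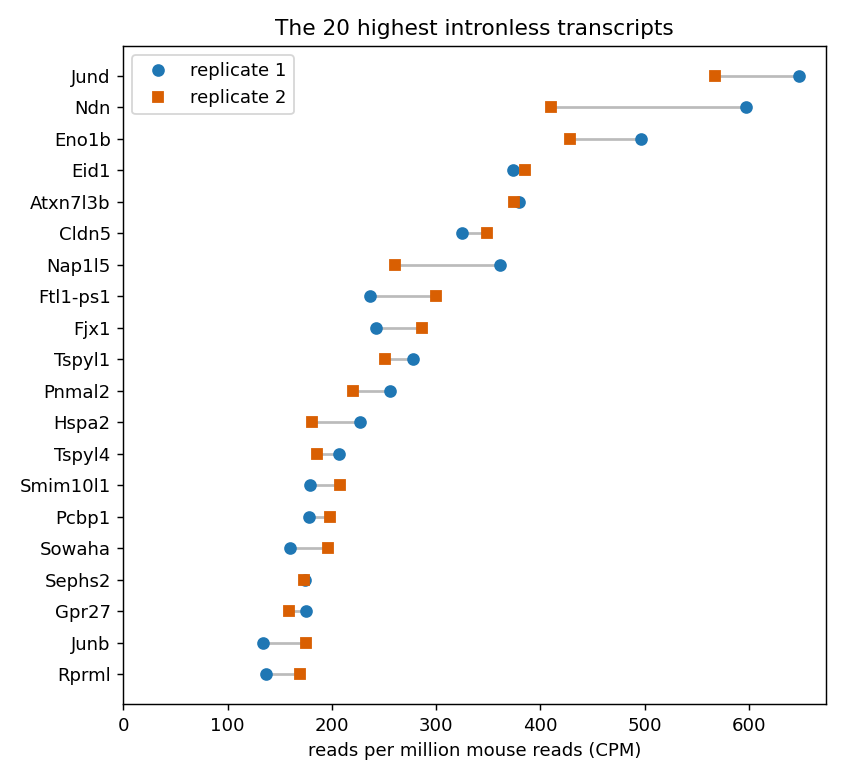
Reads per 1000000 mouse reads (CPM, horizontal axis) of the 20 intronless transcripts with the highest mean, circles for replicate 1 and squares for replicate 2, joined by a line. Jund, Ndn and Eno1b lead in both libraries, and the 2 libraries lie farthest apart for Ndn.

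Below them came Eid1 (EP300 interacting inhibitor of differentiation, chr2:125673095-125674785) with 290 and 356 reads and Atxn7l3b with 294 and 346 reads. Cldn5 (chr16:18776847-18778262), the claudin of tight junctions between brain endothelial cells, had 252 reads in replicate 1 and 322 in replicate 2, or 337 ± 16.4 CPM (SD, n = 2). Nap1l5, an imprinted gene of the nucleosome assembly protein family, had 280 and 241 reads. For Eid1, Atxn7l3b and Cldn5 the 95% interval of the log2 ratio between the libraries included 0.

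The other 13 of the 20 highest ranged from 153 to 268 mean CPM. Ftl1-ps1 had 183 and 277 reads. Fjx1, a secreted homologue of the Drosophila planar polarity protein four-jointed, had 188 and 265 reads. The TSPY-like genes Tspyl1 (215 and 232 reads) and Tspyl4 (160 and 172 reads) were both among them. So were Pnmal2, related to the paraneoplastic Ma antigens, with 198 and 204 reads, and Hspa2, an HSP70 chaperone, with 176 and 167 reads. Pcbp1, an RNA-binding protein of C-rich sequences, had 138 and 183 reads, and Sephs2, the selenophosphate synthetase, had 135 and 160. The orphan receptor Gpr27 had 136 and 147 reads, and Junb, another AP-1 subunit, had 104 and 162. Smim10l1 (139 and 192 reads), Sowaha (124 and 181) and Rprml (106 and 157) completed them. The means of Ftl1-ps1, Fjx1 and Tspyl1, neighbours in this order, differed by less than their SD over the 2 libraries.

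The 262 members with at least 10 reads over both libraries were tested, model by model, with a two-sided Fisher's exact test adjusted by Benjamini-Hochberg over all 14042 models with that many reads. Of all models tested, 1.03% were called at an adjusted p under 0.05. Among members 7 of 262 were called (2.67%), all lower in replicate 2, the direction of 0.591% of all models tested. None was called higher, against 0.442% of all models. At an unadjusted p under 0.05, 34 members passed, 11 higher and 23 lower in replicate 2, which is 13.0% of members beside 9.24% of all models. The median log2 ratio of replicate 2 over replicate 1 was 0.02 over tested members and -0.02 over all tested models. The rule asks for reads in both libraries, so these counts use part of the contrast that chose the members and are given as a description. The other 115 members had fewer reads than the test takes.

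**Figure D2:**
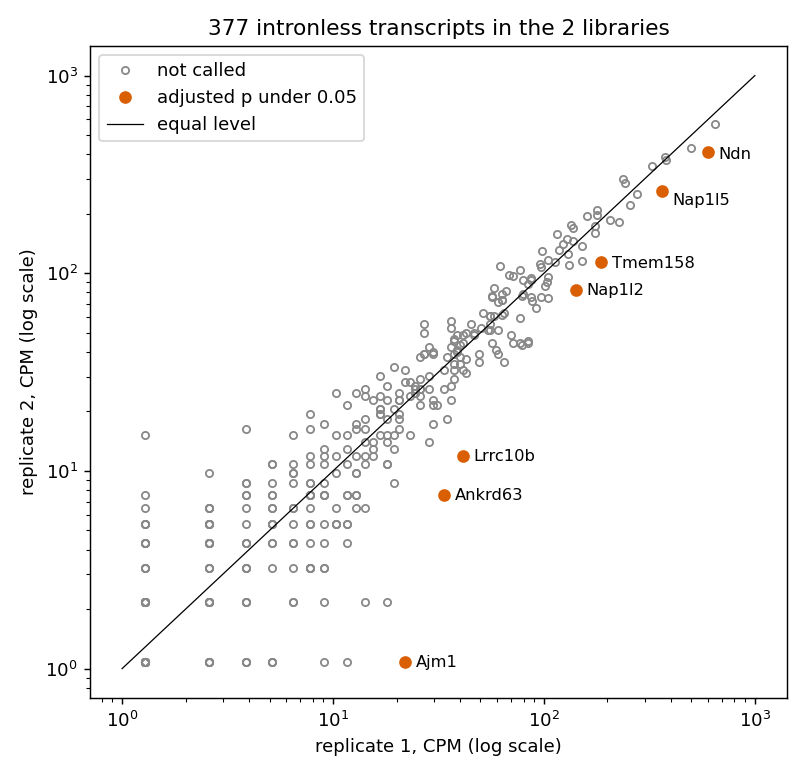
CPM of the 377 intronless transcripts in replicate 1 (horizontal) and replicate 2 (vertical), both on log scales, with the line of equal level. The 7 filled points are the transcripts called at an adjusted p under 0.05, and all lie below the line.

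Of the 7 called members, 3 belong to the list of retroposed, domesticated and imprinted genes. Ndn fell from 597 CPM in replicate 1 to 410 CPM in replicate 2, a log2 ratio of -0.54 (95% interval -0.74 to -0.35), with an adjusted p of 2.89e-05 by Fisher's exact test. Nap1l5 (chr6:58905233-58907076) fell from 361 to 261 CPM, a log2 ratio of -0.47 (adjusted p = 0.0279, exact test). Nap1l2 (chrX:103184176-103186640), a neuronal gene of the same family, fell from 142 to 82.2 CPM, a log2 ratio of -0.78 (adjusted p = 0.0282, exact test).

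A further 3 were Tmem158, Lrrc10b and Ankrd63. Tmem158 (chr9:123259053-123260764), a transmembrane protein gene, had 145 reads in replicate 1 and 105 in replicate 2, a log2 ratio of -0.72 (adjusted p = 0.0182, exact test). Lrrc10b (chr19:10455371-10457473), a leucine-rich repeat gene, had 32 and 11 reads, a log2 ratio of -1.75 with an interval of -2.72 to -0.78. Ankrd63 (chr2:118699103-118703963), an ankyrin repeat gene, had 26 and 7 reads, a log2 ratio of -2.07 with an interval of -3.24 to -0.91. With 1 library on each side there is no estimate of the spread between animals for any of these values.

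Ajm1 (chr2:25576973-25579897), a gene of apical junctions, was called on 17 reads in replicate 1 and 1 read in replicate 2, a log2 ratio of -3.80 (adjusted p = 0.00434, exact test). All models of the Ajm1 gene together had 64 and 92 reads, a log2 ratio of 0.27 with an adjusted p of 0.794 by the same exact test on genes. The gene as a whole was therefore not called. Counted per gene, where 2.11% of 11203 genes were called, the other 6 genes were called again. Slc18a3, the vesicular acetylcholine transporter gene, was called there as well with 14 and 2 reads (adjusted p = 0.0390 per gene and 0.0621 per transcript, exact tests). Cdk5r2, an activator of the kinase Cdk5, was called there in the other direction, with 48 and 100 reads on the intronless transcript (adjusted p = 0.0468 per gene and 0.0831 per transcript, exact tests).

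The libraries also differed in markers of other tissue. The 4 markers of striatum (Ppp1r1b, Penk, Drd1, Drd2) were all lower in replicate 2, with a summed level of 809 CPM in replicate 1 and 202 CPM in replicate 2, where Drd2 had 0 reads. The 3 oligodendrocyte markers summed to 3041 and 1996 CPM, and the 2 of choroid plexus to 38.7 and 251 CPM. Of these 2, Ttr had 28 and 228 reads and Kl only 2 and 4. The 2 hemoglobin genes rose from 214 to 428 CPM. The 4 neuronal markers, Slc17a7 of cortical excitatory neurons among them, stood at 4822 and 4634 CPM. All 4 were lower in replicate 2, and Gad1 fell most, from 303 to 222 CPM. Astrocyte markers summed to 2263 and 2694 CPM, and microglial markers to 212 and 180 CPM. The part of these differences in the calls on members was not tested. In bulk tissue, fewer cells of a type and less RNA per cell cannot be told apart.

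The 9 genes of the list of immediate early and stress transcription factors were all members, 9 of 9 annotated single-exon transcripts. They summed to 1006 CPM in replicate 1 and 1029 CPM in replicate 2. Jund alone held 502 of their 780 reads in replicate 1 and 524 of their 951 in replicate 2, so the sum mostly describes Jund. Junb came next, followed by Ier5 with 53 and 91 reads and Cebpb, a C/EBP factor, with 36 and 46. Of the 9 tested, 0 were called by Fisher's exact test (3 at an unadjusted p under 0.05), and the median log2 ratio was 0.31. For 7 of the 9 the level was higher in replicate 2, beside 134 of all 262 tested members. Over all tested members 13.0% passed an unadjusted p of 0.05 in Fisher's exact test. The list was composed with earlier results of these data known, so its counts are no independent evidence of a direction.

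Developmental transcription factors were seen at lower levels. Among the SOX factors 7 of 8 annotated transcripts were members, with Sox4 at 60 and 41 reads, Sox2 at 30 and 37, Sox12 at 13 and 22 and Sox21 at 10 and 9. Of the POU class 3 factors 3 of 4 were members. Pou3f1, a POU factor of the nervous system, had 76 and 120 reads, while Pou3f3 had 8 and 14 and Pou3f2 had 3 and 4. Of the forkhead and bHLH factors 9 of 13 were members, led by Olig1 of the oligodendrocyte lineage (101 and 116 reads). Foxc1 had 12 and 21 reads, and Bhlhe22 had 6 and 18. Among the 13 tested members of these 3 lists 0 were called by Fisher's exact test, 1 at an unadjusted p under 0.05.

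G protein-coupled receptors gave 22 members of 38 annotated single-exon transcripts, summing to 480 CPM in replicate 1 and 446 CPM in replicate 2. After Gpr27 the highest were the adrenergic receptors Adra2c (50 and 33 reads) and Adrb1 (28 and 49 reads) and the Wnt receptor Fzd1 (21 and 36 reads). Of 16 tested receptors 0 were called by Fisher's exact test and 3 passed an unadjusted p of 0.05. Gpr27 alone held more reads than the next 3 receptors together in both libraries.

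Channel and adhesion genes were mostly low. Of the potassium channels 6 of 7 were members, with Kcnf1, a silent subunit of voltage-gated channels, at 75 and 99 reads, Kcne1l at 15 and 8, Kcnj11 at 11 and 11 and Kcna5 at 9 and 5. Of the leucine-rich repeat membrane proteins 5 of 6 were members. Tril had 47 and 66 reads, the synaptic adhesion gene Slitrk1 had 27 and 35, and Lrrc4 had 14 and 25, none of them called, while Lrrc10b in this list was. Protocadherins gave 16 members of 25, led by Pcdhb9 with 13 and 14 reads, Pcdhb7 with 12 and 13, Pcdhb20 with 11 and 13 and Pcdhb17 with 5 and 10. They summed to only 98.1 and 108 CPM, and 6 of the 16 had enough reads for the test.

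Histones had the lowest share of members among the lists with any. Of 75 annotated single-exon histone transcripts 16 had a read in either library and 9 were members (12%). The highest were Hist3h2a (60 and 96 reads), H2afx, the variant phosphorylated at DNA breaks (51 and 75), H2afj (49 and 73) and H1f0, a linker histone of non-dividing cells (32 and 45). Together the 9 had 310 CPM in replicate 1 and 375 CPM in replicate 2, and 0 of 8 tested were called by Fisher's exact test, with 0 at an unadjusted p under 0.05. The stem-loop shown above lay well inside the longer transcripts, with 1643 bases after it in Hist3h2a, 840 in Hist1h1c, 822 in H2afx and 169 in Hist3h2ba. In Hist2h2aa1 and Hist2h2aa2 only 35 bases followed it and neither poly(A) signal form was found in the last 50 bases. These 2 had 8 and 11 reads and 14 and 13 reads, and their coding sequences are 100% identical, so the division of reads between them is uncertain.

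Of the 10 single-exon heat shock transcripts 6 were members. Hspa2 held 176 of their 227 reads in replicate 1 and 167 of their 217 in replicate 2. Dnajc30 had 38 and 33 reads, and the stress-induced pair Hspa1b and Hspa1a had 6 and 3 and 3 and 6 reads. Small GTPases gave 4 members of 7, with Rhob at 81 and 69 reads, Arl4c at 22 and 39, Rap2b at 23 and 36 and Rab21 at 2 and 2. The BTB and ubiquitin ligase list gave 9 of 24, with Rnf208 at 68 and 67 reads, Rnf26 at 71 and 62, Klhl9 at 49 and 57 and Kbtbd7 at 29 and 30. Zinc finger genes gave 5 of 15, with Zbtb18, a transcriptional repressor of cortical development, at 49 and 68 reads, Zfp830 at 18 and 22, Zfp579 at 9 and 5 and Zfp358 at 1 and 7. Among the tested members of these 4 lists 0 were called by Fisher's exact test, 2 at an unadjusted p under 0.05.

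Retroposed, domesticated and imprinted genes formed the largest list by level, 21 members of 37 annotated transcripts with 2277 CPM in replicate 1 and 1823 CPM in replicate 2. This was 15.2% and 12.5% of all member reads. Beside Ndn, Nap1l5 and Pnmal2 the highest was Rtl8b, derived from a retrotransposon Gag gene, with 117 and 127 reads. Of 17 tested genes 3 were called, all lower, where 7 of 262 tested members and 0.591% of all models tested were called lower. The median log2 ratio was -0.25, against 0.02 over all tested members. This list was composed with earlier results of these data known, and its count is no independent evidence of a direction.

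The mitochondrial genome gave 10 members of its 13 protein-coding genes, at 255 CPM in replicate 1 and 370 CPM in replicate 2. The subunit 1 gene of cytochrome oxidase, mt-Co1, had 89 and 146 reads, cytochrome b (mt-Cytb) had 21 and 46, mt-Nd2 of complex I had 17 and 30 and mt-Nd1 had 15 and 31. All 10 had more reads in replicate 2. Of 9 tested, 9 had a log2 ratio above 0 (134 of 262 over all tested members), with a median of 0.55. The smallest was 0.02 for mt-Atp6, a subunit gene of the ATP synthase. These counts depend on how reads were divided with nuclear copies. The pseudogene Gm10925, 100% identical to mt-Atp6 over the matched coding part, had 21 and 18 reads beside 19 and 23 of mt-Atp6. Gm28437 had 7 and 25 reads beside 7 and 12 of mt-Co3, and Gm28661 had 3 and 14 beside 6 and 11 of mt-Co2, both copies also 100% identical. These 3 members and their copies were named after their values were seen. None of the mitochondrial members passed the adjusted threshold of Fisher's exact test, and 2 passed an unadjusted p of 0.05. Olfactory receptors, with 1069 annotated single-exon transcripts the largest list, had a read for 1 transcript in either library and gave 0 members.

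**Figure D3:**
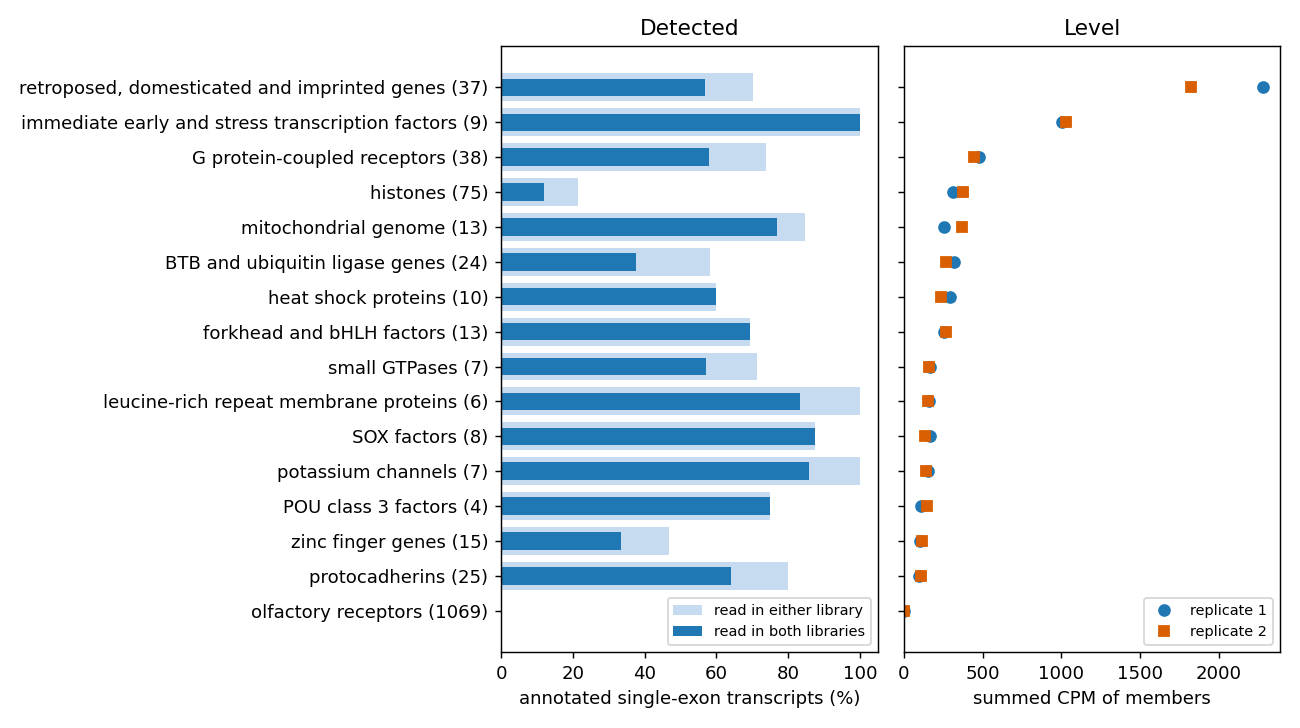
Left, the share of annotated single-exon transcripts (percent, number in brackets) with a read in either library (pale) or in both (dark) for each gene list. Right, the summed CPM of the members in replicate 1 (circles) and replicate 2 (squares), highest for the retroposed and imprinted list, where replicate 2 lies lower.

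Reads of the genes without an annotated intron fell almost entirely on the intronless transcript, 99.0% of 8975 reads in replicate 1 and 98.8% of 10478 in replicate 2. These genes have no annotated spliced transcript and were chosen for reads on the member. A high share therefore follows in large part from the annotation and the choice. Of the 211 member genes that reached 10 reads in both libraries, 152 had no annotated intron, and in 121 of them every read was on the member in both libraries. In 3 of the 152 the member held 90% or less of the reads in a library, and they were picked out after their values were seen. They are Zrsr1 (29 of 33 and 32 of 40 reads), Fndc10 (5 of 12 and 9 of 25) and Rtl8c (2 of 45 and 5 of 77). Over all member genes without an annotated intron, unannotated spliced models of the class Genomic held 68 reads in replicate 1 and 105 in replicate 2. A gene without an annotated intron can thus have spliced reads, and whether these mark true introns was not tested.

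In the 59 genes with an annotated intron and that many reads, the intronless transcript held a median of 65.9% of the reads in replicate 1 and 70.0% in replicate 2. The values spread over the whole range: 21 of the 59 held over 90% in both libraries and 7 under 10% in both. Among the genes that also have spliced transcripts, the 5 with most reads on the intronless one were Eno1b, Atxn7l3b, Nap1l5, Ftl1-ps1 and Hspa2. In Eno1b, Atxn7l3b and Ftl1-ps1 it held 100% of the reads in both libraries, in Nap1l5 98.2 and 97.2% and in Hspa2 97.8 and 98.8%. Tspyl4 held 86.5 and 88.7%, with 25 and 22 spliced reads. Rnf208 was divided, with 41.5 and 39.4% on the intronless transcript. At the low end, given after their values were seen, Map1lc3b (an autophagosome protein) had 1 of 451 reads and 2 of 540 reads on its intronless transcript, and Rab21 had 2 of 114 and 2 of 128.

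**Figure D4:**
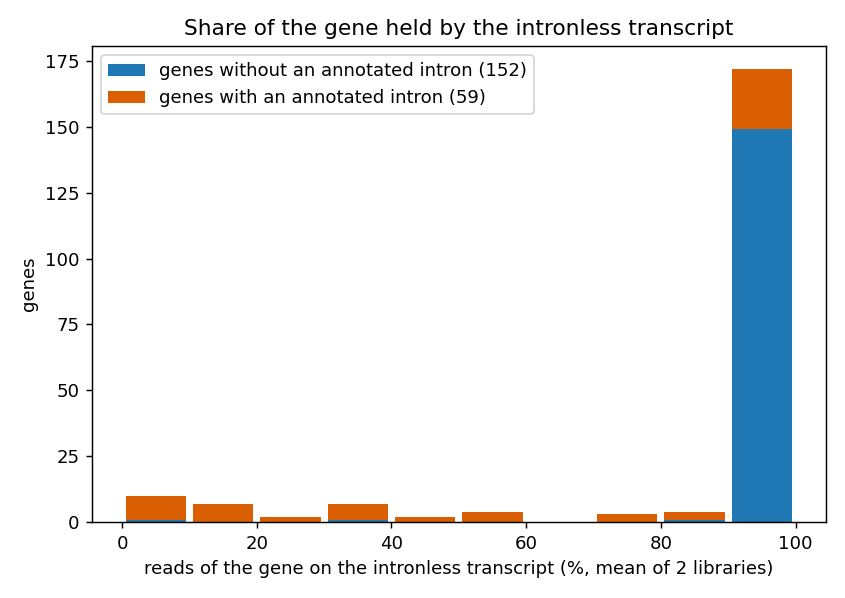
Number of genes by the percent of their reads on the intronless transcript (mean of 2 libraries) for the 211 member genes that reached 10 reads in both. Blue marks the 152 genes without and orange the 59 genes with an annotated intron, and all but 3 of the first kind stand in the highest bar.

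Copies elsewhere in the genome limit how surely reads can be assigned. A copy was counted when a transcript of a gene at another place matched at least 80% of the member's coding length at 95% identity or more. By this rule 49 members had a copy, holding 12.9% of member reads in replicate 1 and 13.2% in replicate 2, and for 27 the copy was a spliced protein-coding gene. In 23 of these 27 the member had fewer reads than the Known spliced transcripts of its copy in both libraries. Eno1b is 99.5% identical to Eno1, which had 667 and 712 Known spliced reads, so that Eno1b took 36.6 and 35.7% of the reads of the pair. Ftl1-ps1, 99.6% identical to Ftl1, took 41.6 and 44.6% beside 257 and 344 spliced reads. Gm11273 (44 and 71 reads) took 20.1 and 21.3% of its pair with Cox5b, a cytochrome oxidase subunit gene. AK157302 (43 and 56 reads) took 14.4 and 15.8% of its pair with Isca1, an iron-sulfur cluster assembly gene. Gm7075, the less similar copy shown above at 96.0% identity, had 18 and 14 reads beside 35 and 26 spliced reads of Rnf7.

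Rpl10-ps3 stood apart with 31 and 40 reads beside only 1 and 6 Known spliced reads of Rpl10, the ribosomal protein gene on the X chromosome, whose transcript matches it at 100% identity over the coding length. The pair Rtl8a and Rtl8b, both intronless, is 99.6% identical and had 95 and 130 and 117 and 127 reads. Arxes1 and Arxes2 are 99.2% identical, with 65 and 42 and 75 and 70 reads. The division of reads within such pairs is uncertain, and whether the assigned copy is the transcribed one was not tested. The genes of this and the preceding paragraph outside the lists above were named after their values were seen.

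**Figure D5:**
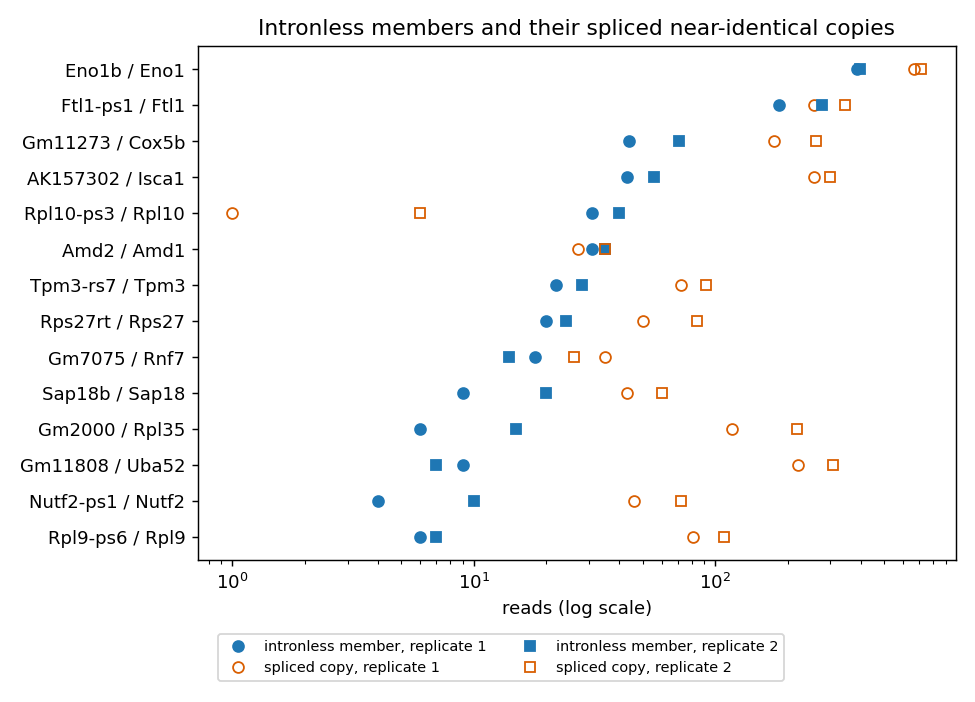
Reads (log scale) of 14 intronless members (filled) and of the Known spliced transcripts of their near-identical copy (open), circles for replicate 1 and squares for replicate 2. The spliced copy has more reads in all pairs but Amd2 beside Amd1 and Rpl10-ps3 beside Rpl10.

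Members also share their place with other genes. For 39 members a same-strand model of another gene overlapped the span by any length. For 9 of them the reads of such models were at least as many as the member's own. All reads of an overlapping model were counted, so they need not cover the member. Gp1bb, a platelet glycoprotein subunit, had 21 and 51 reads of its own on a span where Sept5, a septin gene on the same strand, had 413 and 568. Exosc6, a subunit of the RNA exosome, had 19 and 25 reads beside 85 and 75 of Aars, an alanyl-tRNA synthetase gene. The level of these 2 members, named after their values were seen, depends on how reads were assigned to models.

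A model that overlapped a span by any length was counted here with all its reads. Reads on the opposite strand over members made up 8.72% of the reads on the span in replicate 1 (95% Wilson interval 8.28 to 9.17%) and 9.41% in replicate 2 (8.99 to 9.84%). For the leading Known spliced transcript of each of 10041 genes the shares were 9.39 and 9.47%. The intervals of the second library overlap and those of the first do not. Opposite-strand reads were met over fewer members, 32.9 and 39.5%, than spliced transcripts, 46.0 and 47.6%. Counting only models that cover at least 50% of the span, the share was 1.81 and 2.00% for members and 0.664 and 0.767% for spliced transcripts, which are split over several exons. These sets differ in length and exon number, so no test was made.

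The 5 members with most reads on the opposite strand were Gpr62, Gm9945, Leng9, D930007J09Rik and Rap2b. Gpr62 (chr9:106463962-106465938), an orphan receptor, had 8 and 5 reads against 138 and 178 on the other strand, 126 and 166 of them from the RNA-binding protein gene Pcbp4. Gm9945 (chr11:53480166-53481097) had 10 and 16 reads and faced 124 and 181 reads of Sowaha (chr11:53476573-53480274), itself an intronless member. Leng9 had 7 and 10 reads and faced 84 and 85 reads of Leng8, and D930007J09Rik had 1 and 2 reads and faced 56 and 85 of Wrnip1. Rap2b (chr3:61361638-61368430), a Ras-related GTPase, differed from these: its 44 and 92 leading opposite-strand reads came from an antisense-class model in no annotated gene. In 26 members the opposite strand had more reads than the member in both libraries.

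With each transcript counted once, the median intronless transcript was shorter than the median spliced one. The median annotated length was 2489 bases (quartiles 1460 and 3585), against 2674 for Known spliced protein-coding transcripts. With only the leading spliced transcript of each gene, the spliced median was 2800 bases. Weighted by reads the order was reversed, with medians of 2388 for intronless and 2343 for all Known spliced protein-coding transcripts. The median coding part was 1005 bases, or 44.5% of the transcript, with a median 5′ UTR of 184 bases and 3′ UTR of 901 bases. The 5 longest members were Mars2, the mitochondrial methionyl-tRNA synthetase (11294 bases, 9470 of them 3′ UTR), Amer2 (10506), Pcdhb14 (8695), Paqr9 (8367) and the DNA- and RNA-binding protein Purb (8319). Of these Purb had 100 and 137 reads and Paqr9 had 38 and 36, while Mars2 had 5 and 6, Amer2 had 10 and 11 and Pcdhb14 had 7 and 1. For 24 members, among them the 10 mitochondrial ones, no UTR is annotated.

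The poly(A) signal AATAAA stood in the last 50 bases of 222 of the 377 members (58.9%, 95% Wilson interval 53.9 to 63.7%), and of 63.9% of the leading spliced transcripts. With ATTAAA added the shares were 70.0 and 78.7%. Leaving out the mitochondrial genome gave 60.5% for AATAAA and 71.9% for both forms. No match says only that these letters are not in the annotated end. Of the 20 highest members Jund, Cldn5, Tspyl1, Pnmal2, Hspa2, Gpr27 and Junb had neither form there.

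For 184 members a RefSeq promoter (GRCm38.p6, 250 bases before to 50 after the start) began within 100 bases of the annotated transcript start. The median ratio of observed to expected CpG was 0.77 there, 0.79 for the leading spliced transcripts matched in the same way, and 0.38 over all 32851 promoters. The letters TATAAA, searched on both strands, were in 8.70% of member promoters, 6.55% of the spliced ones and 13.6% of all. TGACGTCA, the letters of the cAMP response element, were in 3.80%, 3.83% and 1.79%. GGGCGG was in 66.3%, 69.2% and 35.7%, and CCAAT in 41.8%, 40.2% and 37.4%. For each of these 4 motifs the share in spliced genes lay within the 95% Wilson interval of the member share.

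The 120 bases before the start are shown for 3 members named above that hold TATAAA or TGACGTCA there, in capitals, chosen to show both motifs in members with high reads or a called difference. Sephs2 lies at chr7:127274060-127274179 (minus strand), Tspyl4 at chr10:34297301-34297420 (plus strand) and Ankrd63 at chr2:118703964-118704083 (minus strand).

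Sephs2: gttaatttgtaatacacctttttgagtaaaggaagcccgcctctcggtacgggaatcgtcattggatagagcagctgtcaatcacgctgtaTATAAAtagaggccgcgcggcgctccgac
Tspyl4: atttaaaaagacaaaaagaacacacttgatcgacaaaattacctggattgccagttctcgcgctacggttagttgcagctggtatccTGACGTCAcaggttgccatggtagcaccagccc
Ankrd63: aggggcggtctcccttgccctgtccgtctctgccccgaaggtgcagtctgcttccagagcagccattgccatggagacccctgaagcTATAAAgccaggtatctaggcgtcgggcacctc

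The motif begins 29 bases before the RefSeq start in Sephs2 and 33 bases before it in both Tspyl4 and Ankrd63. A match is a description of the letters, and binding was not measured.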

How the data were processed

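Long-read RNA-seq models and read counts of 2 libraries of 1 group were used. Per the deposited files' headers and text, the authors built transcript models library by library (mm10, GENCODE M21), and the deposited models name TALON as a source. No aligner or version is given in the sources used here. The deposited values are whole-number counts of reads per model with no normalization, and exon numbers and lengths come from the authors' tables. Members and gene lists were chosen with earlier results of these data known. Depth was 775048 mouse reads in replicate 1 and 924222 in replicate 2, so a count of 0 allows up to 3 reads.

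Known models were matched by identifier and unannotated spliced models by their chain of introns. Unannotated single-exon models (15.4% and 16.9% of mouse reads) could not be matched and were not tested. CPM scales to mouse reads, and log2 ratios add 0.5 reads. Fisher's exact tests (scipy 1.17.1) took models whose reads summed to 10 or more, p-values were adjusted by the Benjamini-Hochberg method (threshold 0.05), and the procedure was tested on simulated data. Overlaps used bedtools 2.31.1, and copies came from blastn 2.17.0 (e-value 1e-20) against the M21 transcripts. Poly(A) signals were read from those transcripts, since no genome sequence was used here. Effective library sizes from edgeR 4.0.16 (TMM) and DESeq2 1.42.0 (size factors) entered alternative tests only, since 1 library on each side leaves no residual degrees of freedom.

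Genes named with values were the 20 members with the highest mean CPM, the called members (at most 10), the 4 highest of each list, the 5 longest and 3 shortest, the 5 with most reads among genes that also have spliced transcripts, and the 5 with most opposite-strand reads. Others are said to be named after their values were seen. For 1 list, 1 gene that this rule takes is not reported here.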

Additional observations from a re-analysis of the deposited data

Results flagged for a closer look

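Among the 112 intronless protein-coding transcripts with reads in 1 library only, 3 had more than 3 reads and were picked for that. This number of reads is the upper bound stated above for a count of 0 in 1 library. Passing it is no test of a difference between the libraries, and no difference is claimed. All 3 transcripts had too few reads for the main exact test. Gm45623 had 7 reads in replicate 2 and none in replicate 1. Klf14, a Krüppel-like factor gene, had 4 reads in replicate 2 and none in replicate 1. Gm9747 had 4 reads in replicate 1 and none in replicate 2.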

How the results depend on the processing

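The number of intronless transcripts was 313 with at least 2 reads in both libraries, 239 with 5 and 185 with 10, 489 with a read in either library and 433 in each library alone. The share of reads they held was 2.27% of Known reads, 7.90% of single-exon mouse reads and 1.13% of mouse reads when genes with an annotated intron were left out. Leaving out a library gave 1.464 to 1.501%, and counting spike-ins gave 1.47%. The number of called transcripts was 2 of 377 tested (Ajm1 and Ndn) with no minimum of reads, where 0.0384% of all models were called. It was 6 to 8 under the other 6 alternatives, with 195 to 283 members or their genes tested. There 0.997 to 2.11% of all models or genes tested were called. All 7 called ones were again among the calls under both other scalings. Reads on the opposite strand per read of the same strand came to 0.0997, to 0.0332 for antisense-class models only and to 0.0194 for models over at least 50% of the span, and to 0.0955 to 0.104 when a library was left out. The share of members with a poly(A) signal rose from 58.9 to 70.0% with ATTAAA added. The share of members in genes without an intron and the median length kept within their interval or 1.5 times under each alternative. Most member genes have no annotated intron, which largely fixes the median over all of them. The median share of the gene's reads was 100% in the main setting and under each alternative. Among genes with an annotated intron it was 75 and 72.9% at 1 read or more in each library (84 genes). At 50 reads or more it was 90.4 and 91.0% (22 genes). At this depth 115 members had too few reads for a test. No paired analysis was possible because the 2 libraries form 1 group.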
